A study of Homo sapiens with 9 samples.

Results

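The nuclear genes for the subunits of the mitochondrial respiratory chain and of ATP synthase were examined in MCF10A, an established line of human breast epithelial cells that form no tumours. The members were the gene symbols that follow the naming patterns of these subunits (NDUF, SDH, UQCR, CYC1, COX and ATP5), without names of pseudogenes and without genes whose mean over the 9 samples was under 1 TPM. TPM, a share of each library scaled to a fixed total, is corrected for transcript length, so levels can be compared between genes. Of 132 matching symbols, 51 had a pseudogene name and 2 were below the level (ATP5L2 with a mean of 0.0938 TPM, and ATP5J2LP, listed at 0), which left 79 members of 56609 symbols in the table. The lowest members were UQCRHL with a mean of 3.06 TPM and ATP5S with 13.6 TPM. All 79 entered the test, which covered 13968 symbols at or above that level. There were 37 genes of complex I, 4 of complex II, 10 of complex III, 12 of complex IV and 16 of ATP synthase. ATP5S, now named DMAC2L, was counted with ATP synthase by its older name, and it also stands in the list of assembly factors used below. NDUFA4 was placed with complex IV, where its protein is now known to sit, despite its name.

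The 3 groups of 3 samples each were an untreated control, cells kept for 16 h in 10 mM calcium together with ionomycin (dose as labelled: 1 mM), and cells treated for 16 h with 10 nM TGFb3. Ionomycin is an ionophore that carries calcium into cells, and TGFb3 is transforming growth factor beta 3. The effects of calcium and of ionomycin cannot be told apart, because the group received both. Cells of all groups were grown with horse serum, EGF, hydrocortisone, cholera toxin and insulin. No label says whether the replicates of a group are separate cultures, and the p-values below reflect just the variation among these samples, technical variation possibly included.

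Complex I (NADH dehydrogenase) and complex II (succinate dehydrogenase) pass electrons from NADH and succinate to coenzyme Q. Complex III passes them on to cytochrome c, and complex IV (cytochrome c oxidase) hands them to oxygen. Complexes I, III and IV pump protons, and ATP synthase uses the return flow of protons to make ATP. Apart from complex II, which is wholly nuclear-encoded, each of these complexes joins subunits from nuclear genes with a few made inside mitochondria from mitochondrial DNA.

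The deposited values keep no sequencing depth. The 9 epithelial markers were all detected, and their summed level was 3472 to 3711 TPM in control, 7113 to 7364 TPM in high calcium and 4749 to 5476 TPM with TGFb3. With TGFb3 6 of them were called higher, LAMB3 and KRT17 among them, while EPCAM and KRT18 were called lower, EPCAM from 294 ± 15 to 118 ± 5.9 TPM (SD). Of 6 fibroblast markers 2 reached a mean of 1 TPM (COL1A1 and DCN), COL1A2 was at 0 in all 9 samples, and the summed level was 2.60 to 3.44, 9.75 to 12.3 and 28.4 to 32.0 TPM in the same order. Of 5 immune markers only CD68 reached a mean of 1 TPM, PTPRC and CD3E were at 0 in all 9 samples, and the summed level was 1.45 to 3.00, 13.9 to 37.3 and 8.44 to 13.6 TPM. None of the 3 endothelial and 3 adipocyte markers reached a mean of 1 TPM. The part of these differences in the results below was not tested. The 13 mitochondrially encoded mRNAs held 21.6% ± 0.94 (SD) of all TPM in control, 4.94% ± 0.13 in high calcium and 21.0% ± 0.55 with TGFb3. The nuclear RNA MALAT1 stood at 124 to 208 TPM in control, 388 to 449 TPM in high calcium and 191 to 216 TPM with TGFb3. All values of a sample share a fixed total. All tested genes had a median log2 difference of 0.22 between high calcium and control, and differences in that comparison are also given relative to that median. For TGFb3 against control this median was -0.06.

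With TGFb3, genes of all 5 complexes fell. The summed level of the 79 genes was 15364, 15960 and 15317 TPM in control and 13178, 12184 and 12331 TPM with TGFb3. The 3 TGFb3 samples were all below the 3 controls, and the ratio of the group means was 0.808. In the limma fit 51 of the 79 genes were called lower at an adjusted p under 0.05, where 33.1% of all tested genes were, and 1 (SDHC) was called higher, where 26.5% of all tested genes were. The other 27 genes were not called. The median log2 difference over the members was -0.29, and the genes called lower fell by 0.17 to 0.85 on the log2 scale. The groups did not overlap for 51 of the 79 genes, where 63.8% of all tested genes did not overlap. Under the other scalings 47 members were called lower after median ratio rescaling, 47 after quantile normalisation and 51 with mitochondrially encoded genes left out, beside 30.4%, 32.7% and 32.5% of all tested genes, and 45 were called lower in all 4 scalings. In bulk RNA, fewer cells of a type and less RNA per cell cannot be told apart.

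In high calcium the summed level of the 79 genes was 15379, 15427 and 15118 TPM, which overlapped the control range, and the ratio of the group means was 0.985. The individual genes went in both directions. Of the 79 genes 18 were called higher, where 46.1% of all tested genes were, and 20 were called lower, where 17% of all tested genes were, while 41 were not called. The median log2 difference over the members was 0.01, and 66 of the 79 lay below the median of all tested genes. This split depended on the scaling: median ratio rescaling gave 4 higher and 45 lower members, beside 30.2% and 30% of all tested genes. Quantile normalisation gave 8 and 39, beside 28.6% and 32%, and leaving mitochondrially encoded genes out of the total gave 7 and 41, beside 32.3% and 26.4%. Members called in every scaling were 4 higher genes (ATP5G2, NDUFS7, SDHC and UQCRC1) and all 20 lower genes, whereas 6 of the 18 higher genes (ATP5H, COX6C, NDUFA1, NDUFA4, NDUFB11 and NDUFS4) changed sign in at least 1 scaling.

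**Figure D1:**
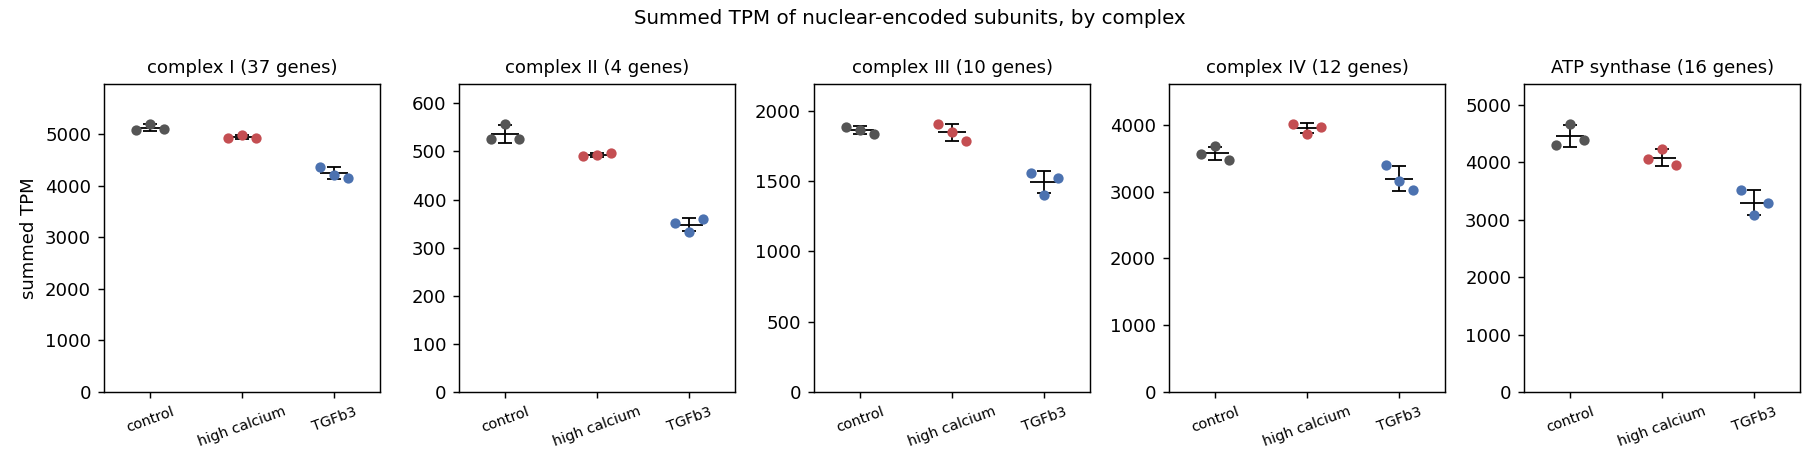
Summed TPM (y axis, linear from 0) of the nuclear-encoded subunits of each complex in control, high calcium and TGFb3 samples; points are the 3 samples of a group, horizontal lines their mean and bars ± 1 SD. The TGFb3 samples lie lowest for every complex, with group means 0.649 (complex II) to 0.892 (complex IV) of control, while high calcium means lie at 0.916 (ATP synthase) to 1.10 (complex IV) of control on the deposited scale and at 0.775 to 0.935 after median ratio rescaling.

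The complexes did not move to the same extent. With TGFb3, the ratio of summed TPM to control was 0.649 for complex II, 0.740 for ATP synthase, 0.801 for complex III, 0.827 for complex I and 0.892 for complex IV. Called lower were 23 of 37 genes of complex I, 3 of 4 of complex II, 6 of 10 of complex III, 6 of 12 of complex IV and 13 of 16 of ATP synthase. The share called lower over all tested genes was 33.1%. In high calcium the summed TPM of complex IV was 3868 to 4013 TPM against 3479 to 3675 TPM in control, a ratio of 1.10. That of ATP synthase was 3947 to 4234 TPM against 4299 to 4665 TPM, a ratio of 0.916. Complex IV was thus above control and ATP synthase below it on the deposited scale, without overlap in either case. Complex IV fell to a ratio of 0.935 under median ratio rescaling, and ATP synthase to 0.775, so the order of the 5 complexes was the same there while the direction for complex IV was not.

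**Figure D2:**
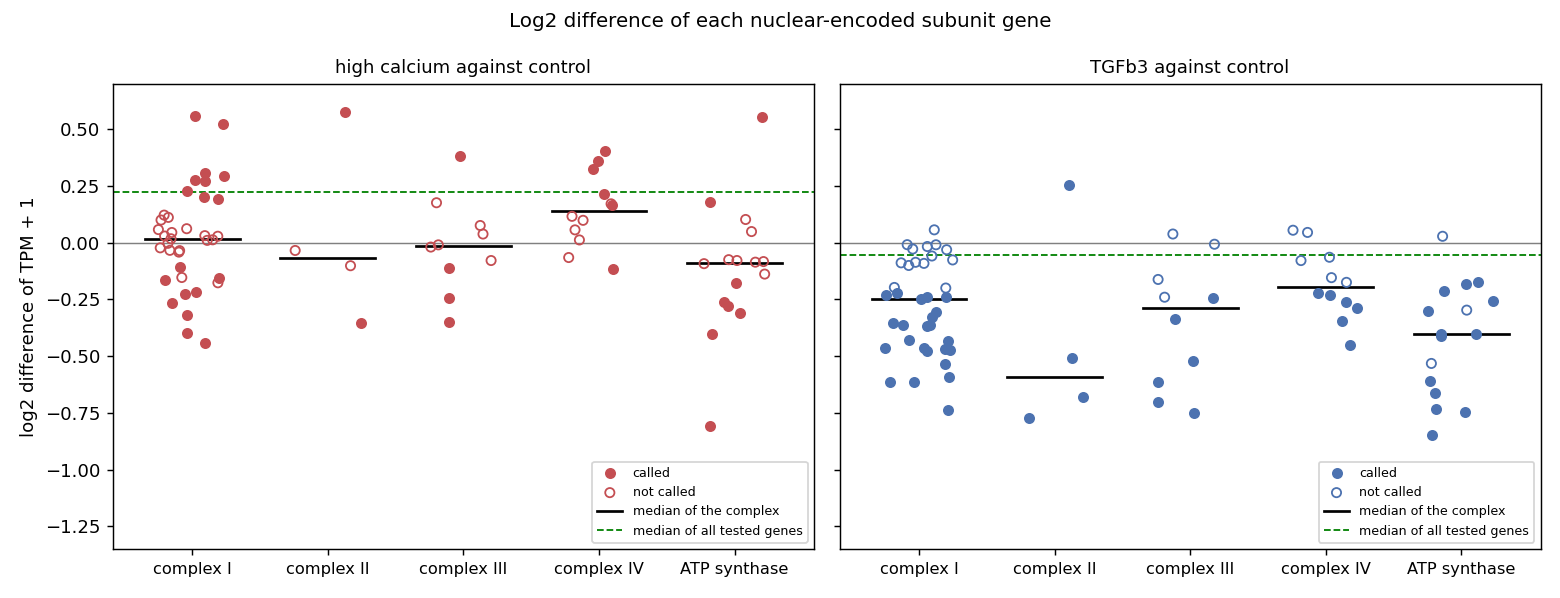
Fitted log2 difference of log2(TPM + 1) for each of the 79 genes (1 point per gene, spread sideways for visibility) in high calcium (left) and with TGFb3 (right) against control; filled points passed an adjusted p under 0.05, black lines are medians of a complex and the dashed line is the median of all tested genes. On the left, points scatter on both sides of 0 and 66 of 79 lie below the dashed line at 0.22, while on the right 51 filled points lie below 0 and SDHC is the filled point above it; on the left the sign of 6 called higher genes changes under another scaling.

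The promoters of these genes are known for binding sites of nuclear respiratory factor 1 (NRF1), of the ETS factor GABP, and of YY1 and SP factors. As context for genes that moved together, RefSeq promoter windows of 300 bases (250 before to 50 after the start, build GRCh38.p14) were searched on both strands for short letter patterns. Windows were found for 63 of the 79 members, 76 windows in all. The NRF1 pattern (GCGC and TGCGC with any 1 base between them) occurred in 19.7% of member windows and in 5.78% of all 35116 windows. For the GABP pattern CCGGAAG these shares were 27.6% and 10.3%, for the YY1 pattern AAGATGGC 17.1% and 2.89%, and for the SP pattern GGGCGG 61.8% and 45.0%. A window can hold several patterns, and patterns can overlap. Among windows of members called lower with TGFb3, the NRF1 pattern occurred in 16.7% and the GABP pattern in 24.1%, against 27.3% and 36.4% of the windows of members not called. The NRF1 and GABP patterns were thus not more frequent in the windows of genes that fell. A match is a description of the letters and not a measured binding site.

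Of the 54 windows of members that fell with TGFb3, 9 held the NRF1 pattern, and so did 6 of the 22 windows of members not called. The NRF1 matches below are those of the 6 genes with the largest falls among the 9, and they show how the pattern sits in these promoters. ATP5I, ATP5O and NDUFA9 are the other 3. The printed stretches are 30 bases long, 5′ to 3′ on the strand of the gene, with the pattern in capitals. In UQCR10 and SDHA the capitals are the reverse complement of the pattern. They lie at chr11:112086753-112086782 (plus strand, SDHD), chr19:29213163-29213192 (minus, UQCRFS1), chr22:29767351-29767380 (plus, UQCR10), chr10:7788145-7788174 (plus, ATP5C1), chr5:218144-218173 (plus, SDHA) and chr9:122159764-122159793 (minus, NDUFA8). The first base of the pattern lies 110, 31, 8, 22, 166 and 4 bases before the RefSeq start in that order.
SDHD: agctgtgtttGCGCATGCGCgacgggtgtg
UQCRFS1: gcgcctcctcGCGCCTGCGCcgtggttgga
UQCR10: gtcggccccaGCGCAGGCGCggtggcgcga
ATP5C1: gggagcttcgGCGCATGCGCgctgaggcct
SDHA: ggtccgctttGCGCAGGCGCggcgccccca
NDUFA8: gttgccggatGCGCATGCGCaggcgccgtg

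The GABP pattern is shown for the 4 genes with the largest falls among the members called lower whose windows held it, 2 of them in complex II, at chr11:112086785-112086814 (plus, SDHD), chr11:47578961-47578990 (plus, NDUFS3), chr1:17054142-17054171 (minus, SDHB) and chr21:25735066-25735095 (minus, ATP5J). In SDHD and NDUFS3 the pattern stands in its reverse complement. It starts 77, 102, 128 and 180 bases before the RefSeq start. Both patterns stood in 1 window for SDHD, for ATP5I, which fell by 0.18 with TGFb3, and for UQCR11, which was not called.
SDHD: ccgcctctcgaCTTCCGGttcacccagcat
NDUFS3: cggaacctccgCTTCCGGctccacgtccgc
SDHB: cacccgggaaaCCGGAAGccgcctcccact
ATP5J: tgccaggggacCCGGAAGcacttaccctcc

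Complex II oxidises succinate in the citric acid cycle and has 4 subunits. Its flavoprotein, its iron-sulfur subunit and the membrane anchor SDHD fell with TGFb3, while the anchor SDHC did not fall in either treatment. SDHA, the flavoprotein that binds succinate, was measured at 106, 120.4 and 113 TPM in control, 105, 106 and 105 TPM in high calcium, and 84.1, 75.1 and 78.5 TPM with TGFb3. SDHB, the iron-sulfur subunit, was measured at 210.0, 225 and 201 TPM in control, 199.8, 214 and 207 TPM in high calcium, and 136, 125 and 135 TPM with TGFb3. For both genes the 3 TGFb3 samples lay below all others, and the log2 difference from control was -0.51 ± 0.055 (SE, adjusted p = 2.2e-05) for SDHA and -0.68 ± 0.052 (SE, adjusted p = 1.9e-06) for SDHB. In high calcium neither was called on the deposited scale (adjusted p = 0.13 and 0.58). Both were called lower there in the other 3 scalings, by 0.34 for SDHA and 0.27 for SDHB on the log2 scale after median ratio rescaling. On the deposited scale, the call of SDHA also depended on the samples. SDHA passed the threshold without sample control 1 (log2 difference -0.15, adjusted p = 0.049). SDHD, a membrane anchor that helps bind coenzyme Q, stood at 188, 189 and 188 TPM in control, 148, 140.0 and 153 TPM in high calcium, and 107, 104 and 119 TPM with TGFb3. Its 3 groups did not overlap, and it fell with TGFb3 by 0.78 ± 0.054 (SE, adjusted p = 9.5e-07) on the log2 scale and in high calcium by 0.36 ± 0.054 (SE, adjusted p = 2.3e-04). The table lists SDHD in 2 entries, which were summed, and its annotated span overlaps TIMM8B. SDHC, the other membrane anchor, stood at 21.2, 22.1 and 23.6 TPM in control, 37.2, 32.5 and 31.8 TPM in high calcium, and 24.1, 28.5 and 27.9 TPM with TGFb3. It rose in high calcium, with a log2 difference of 0.58 ± 0.082 (SE, adjusted p = 1.7e-04), which is 0.35 above the median of all tested genes. Its TGFb3 samples also lay above control (0.25 ± 0.082 SE, adjusted p = 0.023), but this call was lost without sample control 1, control 2, TGFb3 2 or TGFb3 3 (log2 difference 0.21 to 0.25, adjusted p = 0.06 to 0.084) and when no filter on low values was used. Its span overlaps CFAP126. Side by side, SDHC was at 22.3 ± 1.2 TPM (SD) and SDHD at 188 ± 0.81 TPM in control, against 33.8 ± 2.9 and 147 ± 6.6 TPM in high calcium and 26.8 ± 2.4 and 109.8 ± 7.9 TPM with TGFb3.

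**Figure D3:**
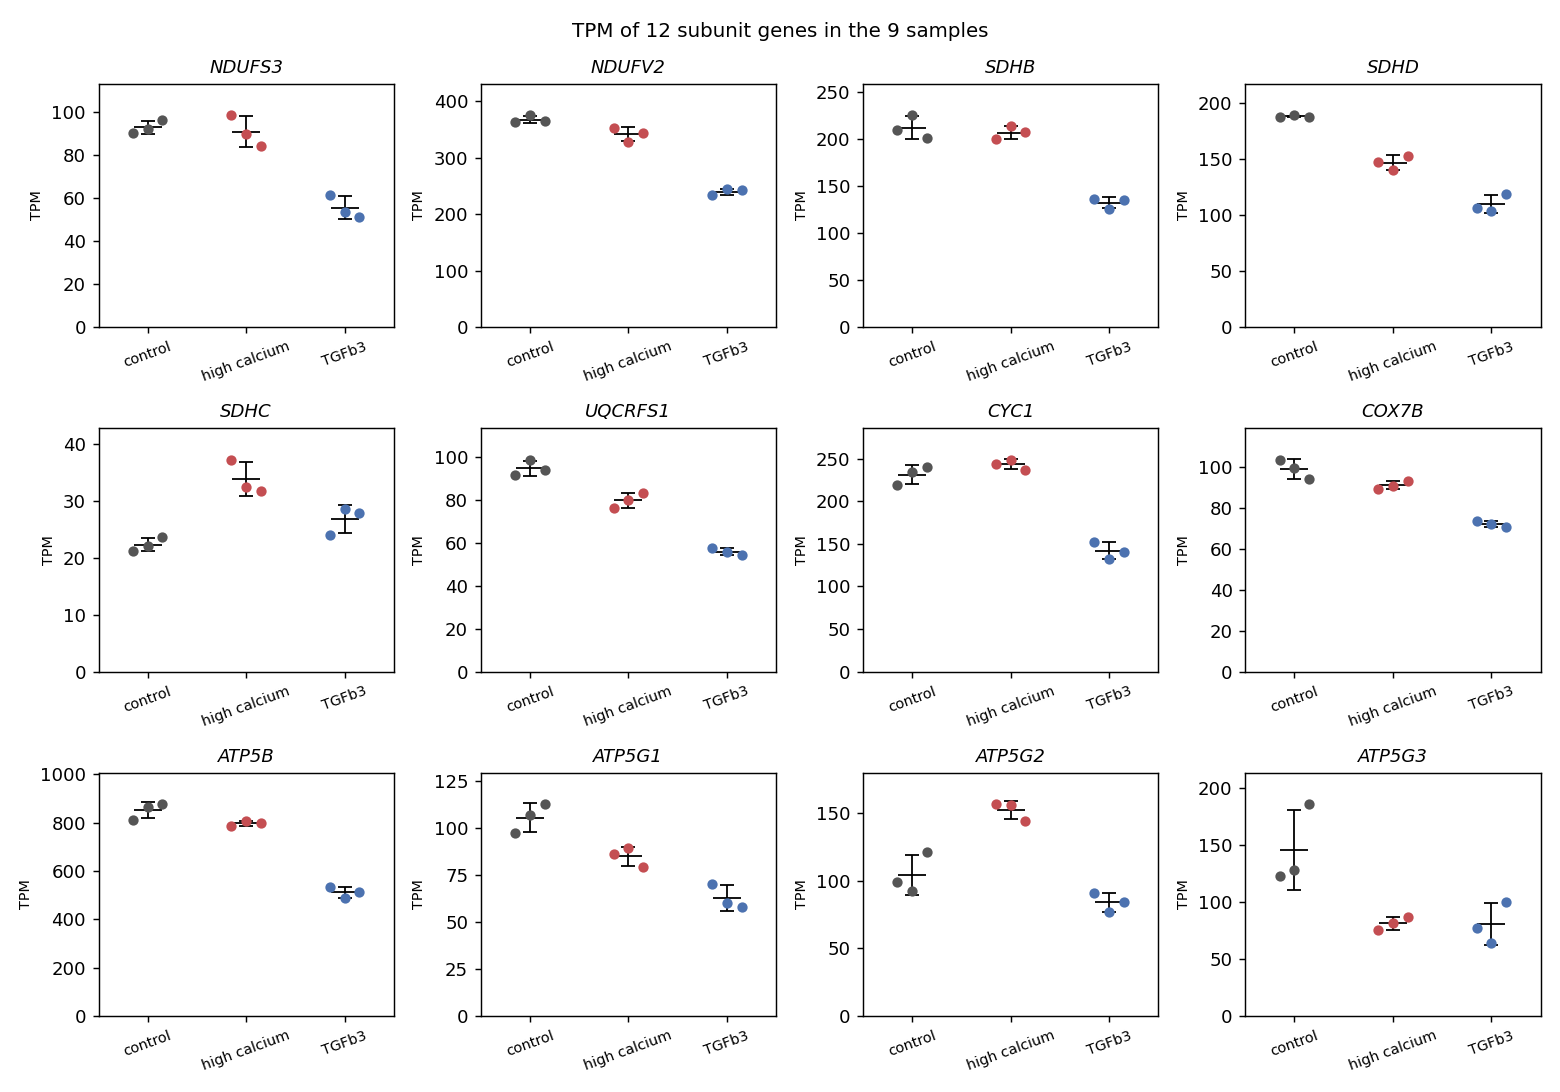
TPM (y axes, linear from 0) of 12 subunit genes in the 3 groups; points are samples, horizontal lines group means and bars ± 1 SD. On the deposited scale NDUFS3, NDUFV2 (called lower), SDHB, CYC1 and ATP5B stay near the control level in high calcium and are low with TGFb3. SDHD, UQCRFS1 and ATP5G1 are lower in both, and SDHC and ATP5G2 are highest in high calcium. After median ratio rescaling NDUFS3, NDUFV2, SDHB, CYC1 and ATP5B were each called lower in high calcium than in control (log2 differences -0.35 to -0.16).

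Complex I has 7 nuclear core subunits, most of which carry flavin or iron-sulfur clusters, and many accessory subunits. Of the 7, 6 were called lower with TGFb3, where 33.1% of all tested genes were. All 7 were called higher in high calcium than with TGFb3 in the direct test on the deposited scale, where 50.4% of all tested genes were. NDUFS3, a core subunit of the arm that reaches into the matrix, was measured at 90.2, 92.0 and 96.1 TPM in control, 98.2, 89.8 and 84.0 TPM in high calcium, and 61.4, 53.3 and 51.3 TPM with TGFb3. With TGFb3 it fell by 0.74 ± 0.074 (SE, adjusted p = 1.5e-05), the largest fall in complex I, and the 3 samples lay below all others. The high calcium samples overlapped control on the deposited scale (-0.03 ± 0.074 SE, adjusted p = 0.71). In the other 3 scalings NDUFS3 was called lower in high calcium (log2 difference -0.27 after median ratio rescaling, adjusted p = 0.0078). NDUFV2, which carries an iron-sulfur cluster beside the flavin site, stood at 364, 375 and 364 TPM in control, 353, 329 and 343 TPM in high calcium, and 234, 244 and 242 TPM with TGFb3, and no groups overlapped. It fell by 0.61 ± 0.038 (SE, adjusted p = 4.3e-07) with TGFb3 and by 0.11 ± 0.038 (SE, adjusted p = 0.031) in high calcium. The small high calcium difference was lost without sample control 1, control 2, high calcium 2 or high calcium 3 (log2 difference -0.11 to -0.08, adjusted p = 0.051 to 0.13) and with the replicate number as a block. NDUFV1, the subunit that binds NADH and flavin, stood at 103, 111 and 123 TPM in control, 138, 138 and 141 TPM in high calcium, and 96.6, 84.0 and 86.9 TPM with TGFb3. High calcium samples were highest and TGFb3 samples lowest, with log2 differences from control of 0.31 ± 0.070 (SE, adjusted p = 0.0032) and -0.33 ± 0.070 (SE, adjusted p = 0.0023). The rise of NDUFV1 is only 0.08 above the median of all genes and was called in none of the other 3 scalings. NDUFS7, which carries the last iron-sulfur cluster before coenzyme Q, stood at 16.1, 14.3 and 18.3 TPM in control, 23.8, 23.7 and 23.2 TPM in high calcium, and 15.5, 12.8 and 13.6 TPM with TGFb3. It rose in high calcium by 0.52 ± 0.095 (SE, adjusted p = 8.4e-04) and was called in every scaling, while with TGFb3 it was the core subunit that was not called (adjusted p = 0.099). The latter difference passed the threshold without sample control 2 or TGFb3 1 (log2 difference -0.28 to -0.27, adjusted p = 0.029 to 0.039). NDUFS1, the largest core subunit, was lower with TGFb3 (-0.24 ± 0.065 SE, adjusted p = 0.0093) and not called in high calcium (adjusted p = 0.13).

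Among the 30 accessory subunits of complex I, 17 were called lower with TGFb3, where 33.1% of all tested genes were. In high calcium 6 were called higher and 8 lower, where 46.1% and 17% of all tested genes were. With median ratio rescaling the split became 0 and 20, with the higher genes given first, beside 30.2% and 30% of all tested genes. It was 2 and 17 after quantile normalisation, beside 28.6% and 32%. With mitochondrially encoded genes left out it was 1 and 18, beside 32.3% and 26.4%. NDUFB9, a subunit of the membrane arm, was measured at 375, 381 and 379.6 TPM in control, 281, 275 and 277 TPM in high calcium, and 268, 271 and 283 TPM with TGFb3. Both treatments lay below control without overlap, by 0.44 ± 0.033 (SE, adjusted p = 1.6e-06) in high calcium and 0.47 ± 0.033 (SE, adjusted p = 1.2e-06) with TGFb3, and on the deposited scale the direct test of the treatments called no difference (0.02 ± 0.033 SE, adjusted p = 0.57). Under the other 3 scalings NDUFB9 was called lower in high calcium than with TGFb3, by 0.27 on the log2 scale after median ratio rescaling (adjusted p = 1.1e-04), and by 0.17 both after quantile normalisation (adjusted p = 0.0025) and with mitochondrially encoded genes left out (adjusted p = 0.0015). NDUFA8, a subunit with paired cysteines on the side of the intermembrane space, was also below control in both treatments. It stood at 116, 127 and 120.4 TPM in control, 89.7, 92.0 and 92.9 TPM in high calcium, and 92.6, 78.1 and 89.9 TPM with TGFb3. Its log2 differences were -0.40 ± 0.063 (SE, adjusted p = 3.2e-04) in high calcium and -0.48 ± 0.063 (SE, adjusted p = 9.6e-05) with TGFb3. The direct test called NDUFA8 lower in high calcium than with TGFb3 after median ratio rescaling only (log2 difference -0.21, adjusted p = 0.015). NDUFA7, an accessory subunit of the matrix arm, went the other way in high calcium at 47.3, 45.5 and 40.4 TPM in control, 67.6, 72.1 and 58.0 TPM in high calcium, and 35.4, 40.4 and 28.0 TPM with TGFb3. It rose there by 0.56 ± 0.13 (SE, adjusted p = 0.0032), although it was not called in every scaling, and with TGFb3 1 sample overlapped control (-0.36 ± 0.13 SE, adjusted p = 0.031). That TGFb3 call was lost without sample control 1, control 2, TGFb3 1 or TGFb3 3 (log2 difference -0.39 to -0.22, adjusted p = 0.053 to 0.1). NDUFS5 had the highest level of complex I, at 614, 639 and 567 TPM in control, 555, 523 and 544 TPM in high calcium, and 596, 577 and 552 TPM with TGFb3, and was lower in high calcium (-0.17 ± 0.051 SE, adjusted p = 0.016), while with TGFb3 it was not called (-0.08 ± 0.051 SE, adjusted p = 0.22). The NDUFS5 call was lost without sample control 1, control 2 or high calcium 2 (log2 difference -0.16 to -0.13, adjusted p = 0.05 to 0.065). Its TGFb3 difference passed the threshold without sample control 3 (log2 difference -0.12, adjusted p = 0.043). The 14 genes of complex I that were not called with TGFb3 were NDUFA1, NDUFA11, NDUFA12, NDUFA13, NDUFA3, NDUFB1, NDUFB11, NDUFB2, NDUFB4, NDUFB7, NDUFC2, NDUFS4, NDUFS5 and NDUFS7. They lay between -0.20 and 0.06 on the log2 scale. NDUFA1, NDUFB7, NDUFB11, NDUFS4, NDUFS8 and NDUFV3 completed the genes of complex I called higher in high calcium with log2 differences of 0.19 to 0.29, near the median of all genes.

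Complex III passes electrons through the Rieske protein and cytochrome c1. Both of these redox subunits fell with TGFb3. UQCRFS1, the Rieske iron-sulfur protein, was measured at 91.6, 98.6 and 93.7 TPM in control, 76.2, 79.9 and 83.3 TPM in high calcium, and 57.7, 55.5 and 54.3 TPM with TGFb3. Its 3 groups did not overlap, with falls of 0.75 ± 0.048 (SE, adjusted p = 5.7e-07) with TGFb3 and 0.24 ± 0.048 (SE, adjusted p = 0.0014) in high calcium. CYC1, cytochrome c1, stood at 219, 235 and 239.7 TPM in control, 244, 249 and 237 TPM in high calcium, and 153, 133 and 140.3 TPM with TGFb3. The TGFb3 samples lay below all others (-0.70 ± 0.055 SE, adjusted p = 2.4e-06), and the high calcium samples overlapped control (0.07 ± 0.055 SE, adjusted p = 0.26). The sign in high calcium changed under median ratio rescaling, where CYC1 was called lower (log2 difference -0.16, adjusted p = 0.016). UQCR10, a small accessory subunit, stood at 103, 107 and 102 TPM in control, 82.3, 88.2 and 73.3 TPM in high calcium, and 71.3, 67.3 and 64.2 TPM with TGFb3, lower in both treatments by 0.61 ± 0.067 (SE, adjusted p = 2.4e-05) with TGFb3 and 0.35 ± 0.067 (SE, adjusted p = 0.0011) in high calcium. UQCRC1 and UQCRC2 are the core subunits on the matrix side. UQCRC1 stood at 106, 108 and 122 TPM in control, 147, 145 and 145 TPM in high calcium, and 119, 108 and 108 TPM with TGFb3, so it rose in high calcium (0.38 ± 0.059 SE, adjusted p = 2.7e-04) and overlapped control with TGFb3 (-0.01 ± 0.059 SE, adjusted p = 0.92). UQCRC2 fell with TGFb3 (-0.52 ± 0.034 SE, adjusted p = 6.7e-07) and was not called in high calcium on the deposited scale (-0.08 ± 0.034 SE, adjusted p = 0.067). It was called lower there in the other 3 scalings (log2 difference -0.32 after median ratio rescaling, adjusted p = 2.1e-05). UQCRH, the hinge protein between cytochromes c1 and c, had the highest level in the complex, at 538, 547 and 537 TPM in control, 506, 503 and 492 TPM in high calcium, and 477, 448 and 446 TPM with TGFb3, and was lower in both treatments (-0.11 ± 0.037 SE, adjusted p = 0.022 in high calcium, -0.24 ± 0.037 (SE, adjusted p = 2.5e-04) with TGFb3). The high calcium call was lost without sample control 2 or high calcium 3 (log2 difference -0.10 to -0.10, adjusted p = 0.063 to 0.077). Reads of UQCRH and of its near-identical copy UQCRHL may have been split between them in ways that cannot be checked here. UQCRB, which helps form the coenzyme Q site, ranged from 193 to 301 TPM in control, and neither treatment's difference was called (adjusted p = 0.36 and 0.85). Its high calcium difference passed the threshold without sample control 1 (log2 difference 0.35, adjusted p = 0.047).

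Complex IV has its copper and haem centres in the mitochondrially encoded subunits, and its nuclear subunits surround them. Of the 5 complexes its summed level stayed closest to control with TGFb3, and 6 of its 12 genes were called lower, where 33.1% of all tested genes were. Among these, COX6B1, COX7B and COX7C were called lower in every scaling, and the others were not. COX7B, a small membrane subunit, was measured at 104, 99.8 and 94.3 TPM in control, 89.7, 91.1 and 93.4 TPM in high calcium, and 73.9, 72.1 and 70.7 TPM with TGFb3. It was lower with TGFb3 by 0.45 ± 0.044 (SE, adjusted p = 1.1e-05), the largest fall in the complex, and in high calcium by 0.12 ± 0.044 (SE, adjusted p = 0.040). This last call was lost without sample control 1, control 2, high calcium 1, high calcium 2, high calcium 3 or TGFb3 2 (log2 difference -0.13 to -0.09, adjusted p = 0.052 to 0.14). COX7C, another small membrane subunit, stood at 473, 462 and 442 TPM in control, 492, 526 and 476 TPM in high calcium, and 369.6, 338 and 376 TPM with TGFb3. It fell with TGFb3 (-0.35 ± 0.053 SE, adjusted p = 2.8e-04) and was not called in high calcium (0.12 ± 0.053 SE, adjusted p = 0.083). COX6B1, which links the monomers of the complex, fell with TGFb3 (-0.26 ± 0.050 SE, adjusted p = 0.0012) from 498 to 506 TPM in control to 400 to 454 TPM. COX5A and COX5B, outer subunits on the matrix side, fell with TGFb3 by 0.29 ± 0.091 (SE, adjusted p = 0.019) and 0.23 ± 0.056 (SE, adjusted p = 0.0050), but neither was called in every scaling. COX6A1, the ubiquitous form of a regulatory subunit, stood at 342, 359 and 366 TPM in control, 467, 461 and 443 TPM in high calcium, and 407, 358 and 345 TPM with TGFb3. It was higher in high calcium (0.36 ± 0.059 SE, adjusted p = 4.2e-04), 0.14 above the median of all genes, and overlapped control with TGFb3 (0.05 ± 0.059 SE, adjusted p = 0.46). COX7A2L, known for joining complexes III and IV into supercomplexes, stood at 152, 164 and 145 TPM in control, 196, 209.6 and 205 TPM in high calcium, and 119.6, 129 and 148 TPM with TGFb3. It had the largest rise of the complex in high calcium (0.40 ± 0.075 SE, adjusted p = 9.5e-04) and was lower with TGFb3 with 1 sample inside the control range (-0.22 ± 0.075 SE, adjusted p = 0.027). The TGFb3 call was lost without sample control 1, control 2, TGFb3 1 or TGFb3 2 (log2 difference -0.23 to -0.15, adjusted p = 0.055 to 0.1). Neither COX6A1 nor COX7A2L was called in high calcium in every scaling. COX4I1, the subunit through which ATP and ADP act on the enzyme, had the highest level of complex IV at 658, 685 and 489 TPM in control, 729, 571 and 755 TPM in high calcium, and 609, 613 and 427 TPM with TGFb3. Its replicates spread widely in all 3 groups, and it was not called in either comparison (adjusted p = 0.41 and 0.46).

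NDUFA4, the last nuclear subunit of complex IV to be recognised, stood at 99.9, 101 and 102 TPM in control, 117, 115 and 109 TPM in high calcium, and 97.1, 94.9 and 95.3 TPM with TGFb3. It was called higher in high calcium (0.16 ± 0.039 SE, adjusted p = 0.0042), but this lies 0.06 below the median of all genes and its sign changed under median ratio rescaling and with mitochondrially encoded genes left out. With TGFb3 it was not called (-0.08 ± 0.039 SE, adjusted p = 0.11). C15orf48 encodes a paralogue of NDUFA4 that is known to take its place in complex IV, and it was added after its values were seen. It stood at 16.5, 16.4 and 20.8 TPM in control, 67.7, 62.9 and 72.7 TPM in high calcium, and 172, 164 and 139 TPM with TGFb3. The 3 groups were far apart, with log2 differences of 1.87 ± 0.10 (SE, adjusted p = 2.1e-07) in high calcium and 3.08 ± 0.10 (SE, adjusted p = 9.6e-09) with TGFb3. C15orf48 thus went from below the level of NDUFA4 in control to above it with TGFb3. Of the forms of complex IV subunits known from other tissues, COX4I2, COX6A2, COX7A1 and COX7B2 were at 0 in all 9 samples. NDUFA4L2 reached 1.38 to 1.68 TPM in high calcium and COX6B2 0.773 to 1.46 TPM, against at most 0.157 and 0.136 TPM in control.

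ATP synthase joins the catalytic F1 head, the peripheral stalk and the membrane part with the rotating ring of c subunits. With TGFb3 13 of its 16 genes were called lower, where 33.1% of all tested genes were, among them all 3 c-ring genes and all 4 of the peripheral stalk. ATP5B, the catalytic beta subunit, had the highest level of all members, at 813, 865 and 875 TPM in control, 786, 807 and 799 TPM in high calcium, and 532, 488 and 514 TPM with TGFb3. It fell with TGFb3 by 0.73 ± 0.044 (SE, adjusted p = 3.4e-07) and was not called in high calcium (-0.09 ± 0.044 SE, adjusted p = 0.087), although the 3 high calcium samples lay below control. That difference passed the threshold without sample control 1 (log2 difference -0.13, adjusted p = 0.039). In the other 3 scalings ATP5B was called lower in high calcium (log2 difference -0.33 after median ratio rescaling, adjusted p = 6.2e-05). Its partner ATP5A1, the alpha subunit, stood at 372, 536 and 341 TPM in control, 429, 522 and 259 TPM in high calcium, and 399, 177 and 316 TPM with TGFb3. The ATP5A1 values overlapped in all groups, and its log2 difference with TGFb3 was -0.53 ± 0.32 (SE, adjusted p = 0.18). ATP5C1 and ATP5D, subunits of the central stalk, fell with TGFb3 by 0.61 ± 0.071 (SE, adjusted p = 4.0e-05) and 0.66 ± 0.081 (SE, adjusted p = 5.7e-05). ATP5E, the smallest subunit of that stalk, did not pass the test with TGFb3 (0.03 ± 0.045 SE, adjusted p = 0.62) and was lower in high calcium (-0.18 ± 0.045 SE, adjusted p = 0.0056). ATP5J2, a membrane subunit, stood at 536, 589.8 and 521 TPM in control, 421, 413 and 410.1 TPM in high calcium, and 465, 469.6 and 483 TPM with TGFb3. It was lower in high calcium than with TGFb3, and it and ATP5E were the 2 members called lower in the direct test of high calcium against TGFb3, in every scaling (log2 differences -0.19, adjusted p = 0.0050, and -0.21, adjusted p = 0.0023). The span of ATP5J2 overlaps those of PTCD1 and CPSF4. ATP5H, a peripheral stalk subunit, stood at 307, 320.3 and 285 TPM in control, 330.4, 341 and 359.8 TPM in high calcium, and 270.3, 244 and 249 TPM with TGFb3. It was lower with TGFb3 (-0.26 ± 0.057 SE, adjusted p = 0.0029) and called higher in high calcium (0.18 ± 0.057 SE, adjusted p = 0.020), a direction that changed under median ratio rescaling and with mitochondrially encoded genes left out. The ATP5H call in high calcium was lost without sample control 3 or high calcium 3 (log2 difference 0.13 to 0.14, adjusted p = 0.068 to 0.076).

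The c subunit, which forms the ring that turns as protons pass, is made from 3 genes whose mature products are the same protein, and these genes went in different directions in high calcium. ATP5G1 stood at 97.4, 107 and 113 TPM in control, 86.3, 89.4 and 79.3 TPM in high calcium, and 70.4, 59.9 and 57.9 TPM with TGFb3. ATP5G3 stood at 123, 128 and 186 TPM in control, 75.4, 81.3 and 87.3 TPM in high calcium, and 77.6, 63.7 and 100.2 TPM with TGFb3. Both were lower in both treatments, ATP5G1 by 0.31 ± 0.081 (SE, adjusted p = 0.0075) and ATP5G3 by 0.81 ± 0.18 (SE, adjusted p = 0.0026) in high calcium, and by 0.74 ± 0.081 (SE, adjusted p = 2.6e-05) and 0.85 ± 0.18 (SE, adjusted p = 0.0021) with TGFb3. ATP5G2 instead stood at 99.2, 92.3 and 121 TPM in control, 156, 156 and 144 TPM in high calcium, and 90.7, 76.6 and 84.2 TPM with TGFb3. It was higher in high calcium (0.55 ± 0.095 SE, adjusted p = 5.7e-04), in every scaling, and lower with TGFb3 (-0.30 ± 0.095 SE, adjusted p = 0.019). The call with TGFb3 was lost without sample TGFb3 2 (log2 difference -0.24, adjusted p = 0.072). ATP5G2 made up 29.4% ± 1.5 (SD) of the c subunit transcripts in control, 47.8% ± 1.4 in high calcium and 37.0% ± 1.9 with TGFb3. Over the same groups ATP5G3 went from 40.6% ± 3.2 to 25.6% ± 2.3 and 35.2% ± 5.3. The summed level of the 3 genes was 320 to 419 TPM in control, 311 to 327 TPM in high calcium and 200.1 to 242 TPM with TGFb3. On the deposited scale the sum in high calcium thus overlapped control. Median ratio rescaling divides control values by 0.933 to 0.981 and high calcium values by 1.12 to 1.13. It thus lowers that sum relative to control. The shares of ATP5G2 and ATP5G3 in high calcium did not overlap control. That of ATP5G1 did, at 26.9% to 32.6% in control and 25.5% to 27.4% in high calcium. These genes have many processed pseudogenes, and no source used here says how reads were shared among the copies.

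The treatments share the control samples, so the direct comparison of high calcium with TGFb3 was also tested. High calcium was higher for 53 members, where 50.4% of all tested genes were higher, and lower for 2, where 16.2% of all tested genes were. The median over members was 0.32 and that over all tested genes 0.27. Median ratio rescaling gave 21 higher and 15 lower members, beside 30% and 30.3% of all tested genes, and a member median of 0.04. Quantile normalisation gave 28 and 7, beside 31.2% and 29.9%, and leaving mitochondrially encoded genes out gave 33 and 9, beside 35.5% and 24.1%. Higher in every scaling were 21 genes, among them ATP5B, ATP5C1, ATP5D, ATP5G2, COX7A2L, COX7C, CYC1, NDUFA10, NDUFA7, NDUFB10, NDUFB5, NDUFC1, NDUFS3, NDUFS7, NDUFS8, NDUFV1, NDUFV2, NDUFV3, SDHB, UQCRC2 and UQCRFS1. The sign of 12 of the 53 changed in at least 1 scaling, NDUFA4, UQCRH and COX6B1 among them.

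The mitochondrially encoded partners of these subunits fell in high calcium, while most were not called with TGFb3. All 13 mitochondrial mRNAs were lower in high calcium, where 17% of all tested genes were. Their median log2 difference was -2.07, with a range of -3.66 to -0.50, and their summed level went from 205485 to 222802 TPM in control to 48014 to 50489 TPM. MT-CO2, the copper subunit of complex IV, stood at 30021, 26172 and 28701 TPM in control, 2449, 2222 and 2368 TPM in high calcium, and 30224, 30077 and 29584 TPM with TGFb3. With TGFb3 3 of the 13 were higher, 2 lower and 8 not called, where 26.5% of all tested genes were higher and 33.1% lower. Median ratio rescaling gave 3 higher and 1 lower, and quantile normalisation 0 higher and 2 lower. Over all tested genes 30.4% and 32.7% were lower in these 2 scalings. The 2 mitochondrial rRNAs had a summed level of 6478 to 7565 TPM in control, 60904 to 65471 TPM in high calcium and 11643 to 11778 TPM with TGFb3. For each sample the summed mitochondrial mRNAs of a complex were divided by the summed nuclear ones. For complex IV this ratio was 18.8 ± 1.2 (SD) in control, 3.14 ± 0.065 in high calcium and 19.8 ± 1.0 with TGFb3. For complex I it was 12.2 ± 0.90, 3.43 ± 0.12 and 15.3 ± 0.77. Multiplying all values of a sample by 1 factor leaves this ratio as it is. For ATP synthase it was 17.1 ± 1.4, 4.55 ± 0.32 and 21.1 ± 2.4. In high calcium the ratio lay below control in every sample. With TGFb3 it lay above control in every sample for complex I and ATP synthase, but overlapped control for complex IV. The part of these RNAs in the nuclear values of high calcium was not tested beyond the rescaled values given above.

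**Figure D4:**
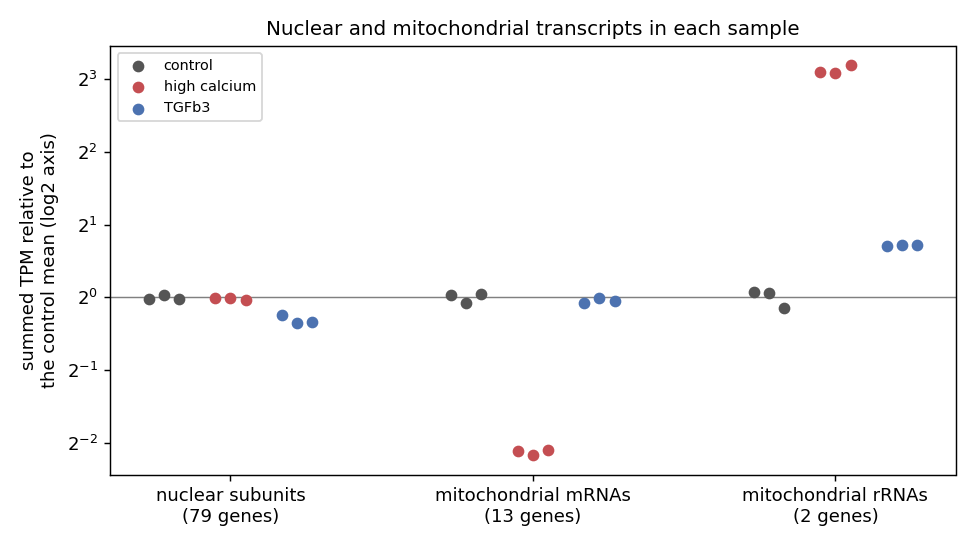
Summed TPM of the 79 nuclear subunit genes, the 13 mitochondrial mRNAs and the 2 mitochondrial rRNAs in each of the 9 samples, divided by the control mean (y axis, log2). High calcium samples lie near 1 for nuclear subunits, at a mean of 0.229 for mitochondrial mRNAs and 8.73 for mitochondrial rRNAs, while TGFb3 samples lie at means of 0.808, 0.971 and 1.64; on a rescaled total the nuclear subunits of high calcium lie below 1.

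Genes that build and serve the chain fell with TGFb3 too. Of 20 assembly factors of complex I, 18 were lower and 0 higher at an adjusted p under 0.05 in limma, beside 33.1% of all tested genes lower, with a median of -0.48. NDUFAF4 was the largest fall among them (-1.12 ± 0.064 SE, adjusted p = 2.6e-07), from 25.9 ± 0.46 to 11.4 ± 0.91 TPM (SD). Of 28 assembly factors of complex IV 20 were lower, and HIGD1A, a small inner membrane protein induced by low oxygen, was higher (0.29 ± 0.039 SE, adjusted p = 1.3e-04). COA4 (-1.04 ± 0.059 SE, adjusted p = 2.7e-07), TIMM21 (-1.09 ± 0.079 SE, adjusted p = 1.3e-06) and the RNA-binding protein LRPPRC, which stabilises mitochondrial mRNAs (-0.90 ± 0.041 SE, adjusted p = 6.3e-08), were among the falls. Of 6 assembly factors of complex III 5 were lower, with LYRM7, which delivers the Rieske protein, at -1.34 ± 0.083 (SE, adjusted p = 4.5e-07), and TTC19 was higher (0.14 ± 0.054 SE, adjusted p = 0.043). Of 4 factors of complex II 3 were lower, SDHAF3 the most (-1.21 ± 0.093 SE, adjusted p = 2.0e-06). Of 5 of ATP synthase, the member ATP5S among them, 2 were lower. In high calcium, on the deposited scale, 4 of the 20 complex I factors were higher and 6 lower, and 4 of the 28 complex IV factors were higher and 12 lower, where 46.1% of all tested genes were higher and 17% lower. Median ratio rescaling gave 0 and 11 for complex I and 3 and 17 for complex IV, beside 30.2% and 30% of all tested genes. SURF1, an early factor of complex IV, was called higher in high calcium on the deposited scale (0.86 ± 0.11 SE, adjusted p = 9.0e-05).

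The carriers between the complexes changed as well. CYCS, cytochrome c, stood at 263, 274 and 265 TPM in control, 232, 227 and 231 TPM in high calcium, and 138, 138 and 143 TPM with TGFb3. Its 3 groups did not overlap, and it fell by 0.93 ± 0.033 (SE, adjusted p = 1.4e-08) with TGFb3 and by 0.22 ± 0.033 (SE, adjusted p = 2.8e-04) in high calcium. Over the 15 genes for cytochrome c, its haem lyase and coenzyme Q synthesis, 11 were lower with TGFb3, where 33.1% of all tested genes were, and COQ10B was higher. In high calcium 7 were higher and 6 lower, where 46.1% and 17% of all tested genes were. Median ratio rescaling gave 5 and 7, beside 30.2% and 30% of all tested genes. PDSS1, which makes the side chain of coenzyme Q, fell in both treatments (-1.01 ± 0.051 SE, adjusted p = 1.1e-07 in high calcium, -1.23 ± 0.051 (SE, adjusted p = 3.6e-08) with TGFb3). COQ5, a methyltransferase of that pathway, rose in high calcium (0.99 ± 0.072 SE, adjusted p = 1.4e-06) and fell with TGFb3 (-0.31 ± 0.072 SE, adjusted p = 0.0039). COQ8A had the largest fall with TGFb3 (-1.67 ± 0.14 SE, adjusted p = 3.1e-06).

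Of 15 regulators of mitochondrial biogenesis and transcription, 12 were lower with TGFb3, where 33.1% of all tested genes were, and HIF1A was higher (0.11 ± 0.040 SE, adjusted p = 0.038), a call lost with mitochondrially encoded genes left out (adjusted p = 0.056). In high calcium 5 were higher and 5 lower, where 46.1% and 17% of all tested genes were. Median ratio rescaling gave 3 and 10, beside 30.2% and 30% of all tested genes. TFAM, which packages mitochondrial DNA and starts its transcription, stood at 69.6, 73.6 and 68.6 TPM in control, 33.3, 33.2 and 33.7 TPM in high calcium, and 34.0, 35.3 and 38.1 TPM with TGFb3. Both treatments were below control without overlap (-1.06 ± 0.052 SE, adjusted p = 8.9e-08 in high calcium, -0.96 ± 0.052 (SE, adjusted p = 1.8e-07) with TGFb3). PPARGC1B, a coactivator of respiratory genes, fell with TGFb3 (-1.56 ± 0.085 SE, adjusted p = 1.8e-07) and in high calcium (-0.42 ± 0.085 SE, adjusted p = 0.0015). Its relative PPARGC1A was low, at 0.594 to 1.08 TPM in control, 2.09 to 2.28 TPM in high calcium and 0.384 to 0.614 TPM with TGFb3. NRF1 and GABPA, which name 2 of the promoter patterns above, were lower with TGFb3 (-0.32 ± 0.11 SE, adjusted p = 0.023 and -0.30 ± 0.060 (SE, adjusted p = 0.0015)). In high calcium neither was called on the deposited scale, and both were called lower in the other 3 scalings. MYC fell with TGFb3 (-0.56 ± 0.035 SE, adjusted p = 5.0e-07).

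**Figure D5:**
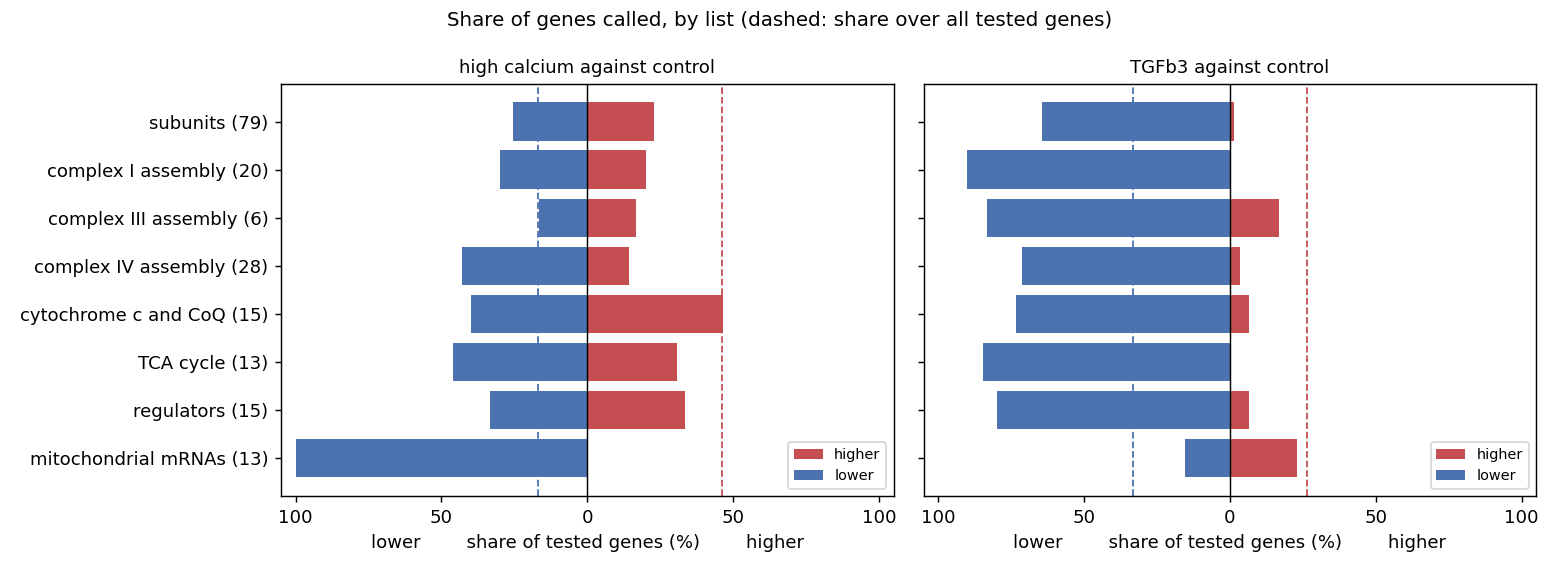
Share of the tested genes of each list (numbers in parentheses) called lower (blue, to the left) or higher (red, to the right) at an adjusted p under 0.05, in percent; dashed lines mark the same shares over all tested genes. With TGFb3 the lower share of subunits is 64.6%, beside 33.1% for all genes, and mitochondrial mRNAs have the smallest lower share of the lists shown; in high calcium all 13 mitochondrial mRNAs are lower, and the split of subunits there moves toward lower under other scalings.

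Other ATP synthase genes carry names in the table that the patterns do not reach, and they were added after their values were seen. ATPIF1, the inhibitor of ATP hydrolysis by the enzyme, stood at 167, 173 and 174 TPM in control, 195, 189 and 201 TPM in high calcium, and 159, 143 and 145 TPM with TGFb3, higher in high calcium on the deposited scale only (0.19 ± 0.047 SE, adjusted p = 0.0063, against -0.05 and adjusted p = 0.36 after median ratio rescaling) and lower with TGFb3 (-0.20 ± 0.047 SE, adjusted p = 0.0040). The membrane subunits USMG5 and C14orf2 were also lower with TGFb3 (-0.15 ± 0.043 SE, adjusted p = 0.011 and -0.27 ± 0.070 (SE, adjusted p = 0.0070)). Replicates of most members were close, with a median coefficient of variation of 4.98% in control, 4.34% in high calcium and 5.76% with TGFb3. It exceeded 20% in at least 1 group for 7 members (ATP5S, ATP5A1, NDUFA3, ATP5G3, UQCRB, NDUFB1 and UQCRHL), and of these only ATP5G3 was called in a comparison. Of the members 50 overlap another annotated gene and 36 a protein-coding one, and no source used here says whether the counting used the strand.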

How the data were processed

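RNA of 9 MCF10A samples was sequenced as paired ends of 101 bp, per the labels' protocols. The authors deposited 1 table of TPM values for 58288 annotated genes, and the submitters' processing notes name HISAT2 and hg38. No source used here gives its version, the counting tool, the annotation release or the strandedness. TPM keeps no depth, so no interval for counting error is given. Entries with the same symbol were summed. Gene spans and overlaps were taken from GENCODE release 29 and promoter windows from RefSeq, GRCh38.p14.

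Values were tested as log2(TPM + 1) with limma 3.58.1 in R 4.3.3 over 13968 symbols (mean of 1 TPM or more), with all 9 samples, 3 groups, an empirical Bayes variance with trend and 6 residual degrees of freedom. Two-sided p-values were adjusted by Benjamini-Hochberg over all tested symbols within a comparison, and 0.05 was the threshold for a call. On this scale the change of genes with low values is understated. The fit was tested on simulated data. Tables and figures were made with Python 3.11.15, pandas 2.3.3 and matplotlib 3.10.9.

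The members and gene lists were chosen with earlier results of these data known. Within each complex the rule for genes given in full named the 2 largest called rises and falls in each comparison with control, the 2 highest levels, members going against their complex, and a set of catalytic subunits whatever their values. Of the other lists up to 3 called members per comparison could be named, and isoforms and regulators whatever their values. Alternatives were 3 scalings (median ratio rescaling, quantile normalisation, mitochondrially encoded genes left out of the total), pseudocounts of 0.1 and 5, no filter, a mean of at least 5 TPM, only the compared groups, a replicate block and leaving out each sample. The level of 1 immune marker is not reported here.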

Additional observations from a re-analysis of the deposited data

How the results depend on the processing

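For high calcium against control, the members called higher were 4 after median ratio rescaling, 8 after quantile normalisation and 7 with mitochondrially encoded genes left out, those called lower were 45, 39 and 41, and the member median was -0.227, -0.154 and -0.184. For high calcium against TGFb3 the same settings gave 21, 28 and 33 higher, 15, 7 and 9 lower, and medians of 0.0362, 0.106 and 0.129. These scalings move the median of all genes in high calcium against control from 0.224 to 0.0045, -0.0377 and 0.052 by construction. The ratios of summed TPM in high calcium under the same 3 settings were 0.816, 0.871 and 0.842 for complex I, 0.778, 0.842 and 0.803 for complex II, 0.838, 0.901 and 0.865 for complex III, 0.934, 0.996 and 0.964 for complex IV, and 0.775, 0.826 and 0.7999 for ATP synthase. With TGFb3 complex I stood at 0.856 after median ratio rescaling and 0.856 after quantile normalisation, and complex II at 0.68 after quantile normalisation. Members called higher with TGFb3 numbered 2 after quantile normalisation and 0 without a filter. The log2 difference in high calcium against control reversed for ATP5H (-0.0628 median ratio, -0.0183 mitochondrial genes left out), CYC1 (-0.165 median ratio) and NDUFA4 (-0.0739 and -0.0298). Against TGFb3 it reversed after median ratio rescaling for NDUFA8 (-0.207), NDUFB9 (-0.266), UQCR10 (-0.0253), UQCRH (-0.158), COX6B1 (-0.0937) and NDUFA4 (-0.0425), after quantile normalisation for NDUFB9 (-0.165) and UQCRH (-0.0541), and with mitochondrial genes left out for NDUFB9 (-0.173), UQCRH (-0.0655) and COX6B1 (-0.0009). The cause was not tested beyond this construction.

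Leaving out each sample in turn gave 15 to 18 higher and 14 to 21 lower members in high calcium (median -0.0205 to 0.0186), 0 to 1 higher and 47 to 53 lower with TGFb3, and a median of 0.288 to 0.36 for high calcium against TGFb3. The complex II ratio in high calcium was then 0.911 to 0.938. With the replicate number as a block, 17 members were higher and 18 lower in high calcium, 1 higher and 50 lower with TGFb3, and 53 higher and 2 lower in high calcium against TGFb3. Samples with the same number did not deviate together (correlations of -0.0747 to -0.0037), so the numbers were not taken to pair samples.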

Other observations

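Enzymes of the citric acid cycle, which supplies NADH and succinate to the chain, were described beside the subunits. With TGFb3 11 of the 13 were lower and 0 higher at an adjusted p under 0.05 in limma, where 33.1% of all tested genes were lower, with a median log2 difference of -0.41. IDH3A, the catalytic subunit of NAD-dependent isocitrate dehydrogenase, fell from 88.7 ± 6.1 to 49.2 ± 3.5 TPM (SD), and FH, fumarase, from 281 ± 10.4 to 173 ± 3.0 TPM. In high calcium 4 were higher and 6 lower, where 46.1% and 17% of all tested genes were. Median ratio rescaling gave 2 and 9, beside 30.2% and 30% of all tested genes. The subunits of isocitrate dehydrogenase differed in high calcium, with IDH3A lower (log2 difference -0.37, adjusted p = 7.8e-04) and IDH3G higher (0.55, adjusted p = 1.6e-05). OGDH, which makes succinyl-CoA, was also higher in high calcium, at 69.2 ± 3.8 TPM in control and 96.2 ± 0.86 TPM in high calcium.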
